A study of Rattus norvegicus with 3 samples.

Results

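Translation factors are the proteins that start and extend protein synthesis on the ribosome. The members described here are all genes whose single symbol in the platform's probe table begins with Eif (eukaryotic initiation factor) or Eef (eukaryotic elongation factor) and a digit. There were 60 such genes, 49 with the Eif and 11 with the Eef prefix, among 14217 genes named by a single symbol. A gene's value was that of its brightest probe set by mean over the arrays.

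The study measured rat brainstem RNA on 3 Affymetrix arrays, 1 per group, with each group's brainstem tissue of 5 rats mixed into 1 pool, as the design text is read here, and taken 1 h after modelling. The Sham array holds the pool of sham rats. The TBI array holds that of rats with traumatic brain injury, and the Hand Acu array that of rats given hand acupuncture. Strain, age and sex were not given in the labels used here, and neither was whether the Hand Acu rats had also been injured. With 1 array per group there is no measure of spread: differences are given as read, without tests, and the number of arrays limits the precision. In pooled tissue, fewer cells of a type and less RNA per cell cannot be told apart.

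Values are MAS5 signals on the log2 scale, where 1 unit is a 2-fold difference. MAS5 is Affymetrix's method for turning the probes of a probe set into 1 signal. A floor was set at a mean log2 signal of 7.44, the median of all probe sets other than controls, and 9241 genes lay above it. Where 3 values follow a gene, they are in the order Sham, TBI, Hand Acu. Signals of different probe sets also reflect probe affinity, so they are not compared as amounts of RNA.

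The tissue label was set against marker lists. All 5 neuron markers, all 4 astrocyte markers and the 3 oligodendrocyte markers matched lay above the floor. Of 8 hindbrain and brainstem markers listed, 5 were matched and 3 of these, Hoxa5, Chat and Hoxb3, lay above it, while the glycine transporter Slc6a5 and the glycine receptor Glra1 did not. Cerebellum markers were also present, 6 of 7 above the floor, and their summed signal was 20729 on the Sham, 14760 on the TBI and 14615 on the Hand Acu array. The summed signal of the 5 matched hindbrain markers was 720, 962 and 883. For TBI minus Sham, Hoxa5 differed by 1.22, Chat by 0.25 and Hoxb3 by 0.18. Slc6a5 and Glra1, below the floor, went the other way at -0.12 and -0.34. The summed signal of forebrain markers, 4 of 5 matched, was 2061, 2372 and 2323. The forebrain markers did not move together: for TBI minus Sham Ppp1r1b and Drd2 differed by 0.60 and 0.26, and Neurod2 and Neurod6 by -0.56 and -0.08. Endothelial markers, 3 of 4 matched, summed to 3026, 2376 and 2315, with TBI minus Sham differences of -0.44 for Cldn5, the brightest, -0.14 for Tek and -0.05 for Pecam1. Microglial markers, with 3 of 4 above the floor, summed to 2485, 2556 and 2446. Neuron markers summed to 35014, 36530 and 36114, astrocyte markers to 36729, 38123 and 35977, and oligodendrocyte markers to 35643, 38287 and 36203. On the TBI array 4 of 5 neuron markers were higher than on the Sham array, and Rbfox3 differed by -0.31. Of the 4 astrocyte markers 2 were higher, with Gfap at 0.30, and 2 were lower. No marker was listed at 0. The part of these tissue differences in the values below was not tested. The ratio of the beta-actin probe sets at the tail and head ends of the transcript, a sign of RNA integrity, was 5.58, 6.37 and 6.69. The same ratio for GAPDH did not follow that order: it was lowest on the TBI array, at 1.20, and highest on the Hand Acu array, at 1.28.

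Initiation begins when eIF2 brings the initiator tRNA to the small ribosomal subunit, eIF3 holds that complex together, and the eIF4 group loads it onto the capped end of an mRNA. Cells slow the process through kinases that phosphorylate eIF2, which then blocks its own exchange factor eIF2B, and through binding proteins that take the cap-binding protein eIF4E out of use. Elongation is carried by eEF1A, which delivers tRNAs, and eEF2, which moves the ribosome along. In neurons these steps also serve local protein synthesis at synapses, and phosphorylation of eIF2 is a known response of the brain to injury. The arrays measure RNA and not phosphorylation.

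Translation factor genes were well detected, and the gaps between arrays were of about the size found over all genes. Of the 60 members, 59 lay above the floor, the exception being the methyltransferase gene Eef1akmt4 with 6.23, 6.12 and 5.93. Signals of the members ranged from 6.09 to 13.78 in mean, with a median of 10.25, and 20 of the 60 lay at or above the 90th percentile of all named genes by signal. The median gap between a member's highest and lowest array was 0.16, where it was 0.18 over all genes above the floor and 0.14 over the 5255 genes above a higher floor of 9.25. None of the 59 members was 1.5-fold apart in any of the 3 comparisons. Over all genes above the floor, 1.55% were at least 1.5-fold apart for TBI minus Sham, 1.21% for Hand Acu minus TBI and 1.89% for Hand Acu minus Sham, so a count of 0 among 59 is near the background.

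**Figure D1:**
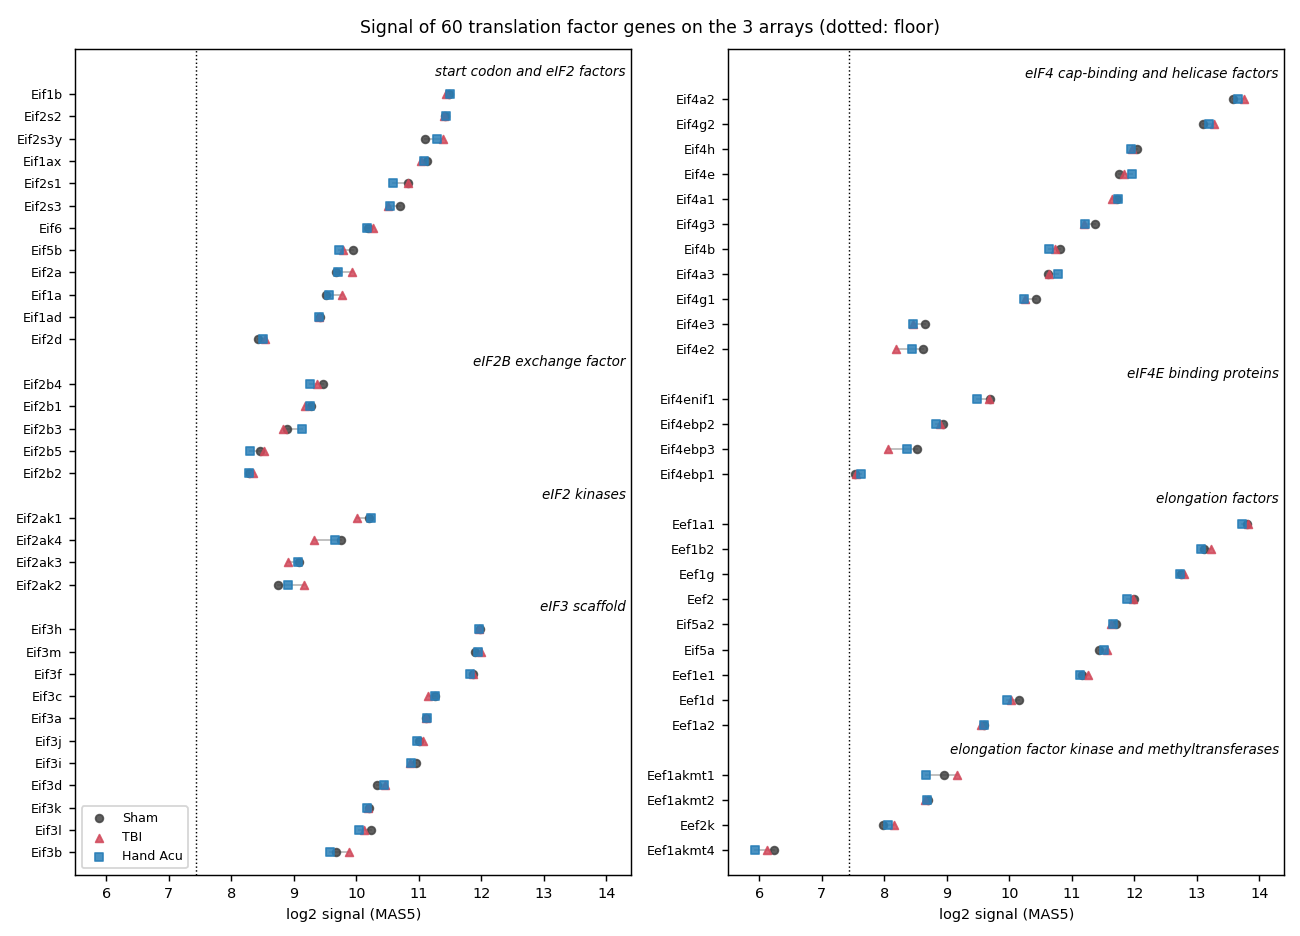
Log2 signal (horizontal axis) of each of the 60 members on the Sham (circles), TBI (triangles) and Hand Acu (squares) arrays, 1 value per array, grouped by role. The 3 symbols of most genes lie close together, with a median gap of 0.16, and Eef1akmt4 alone lies left of the dotted floor at 7.44.

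A log2 difference of 0.32 in size was therefore used as a finer line. For TBI minus Sham, 4 of 59 members reached it, against 10.1% of all genes: 1 was higher, against 5.05%, and 3 were lower, against 5.05%. For Hand Acu minus TBI 2 of 59 reached it, against 8.16%, with 1 higher against 4.04% and 1 lower against 4.12%. For Hand Acu minus Sham 0 of 59 reached it, against 11% of all genes, 5.5% higher and 5.46% lower. These shares depend on signal: above the higher floor 1 of 44 members passed for TBI minus Sham, 1 of 44 for Hand Acu minus TBI and 0 of 44 for Hand Acu minus Sham, where 4.8%, 3.37% and 5.2% of genes did. No statement about the factors as a group is drawn from these counts.

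By direction alone, 26 of 59 members were higher on the TBI than on the Sham array, with a median log2 difference of -0.02, where 51% of all genes were higher with a median of 0.00. On the Hand Acu array 23 of 59 were higher than on the TBI array (median -0.04), against 49.3% of all genes (median -0.00). Against Sham, 22 of 59 were higher on the Hand Acu array (median -0.03), against 51% of all genes (median 0.00). The comparisons share arrays pairwise, so the counts are related by construction. The Hand Acu array was the highest of the 3 for 10 of 59 members, or 16.9%, and for 32.3% of all genes, and the Sham array was the highest for 27 members, or 45.8%, and for 34.3% of all genes. With quantile normalization, the Hand Acu array was the highest for 11 members, or 18.6%, against 33.8% of all genes.

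**Figure D2:**
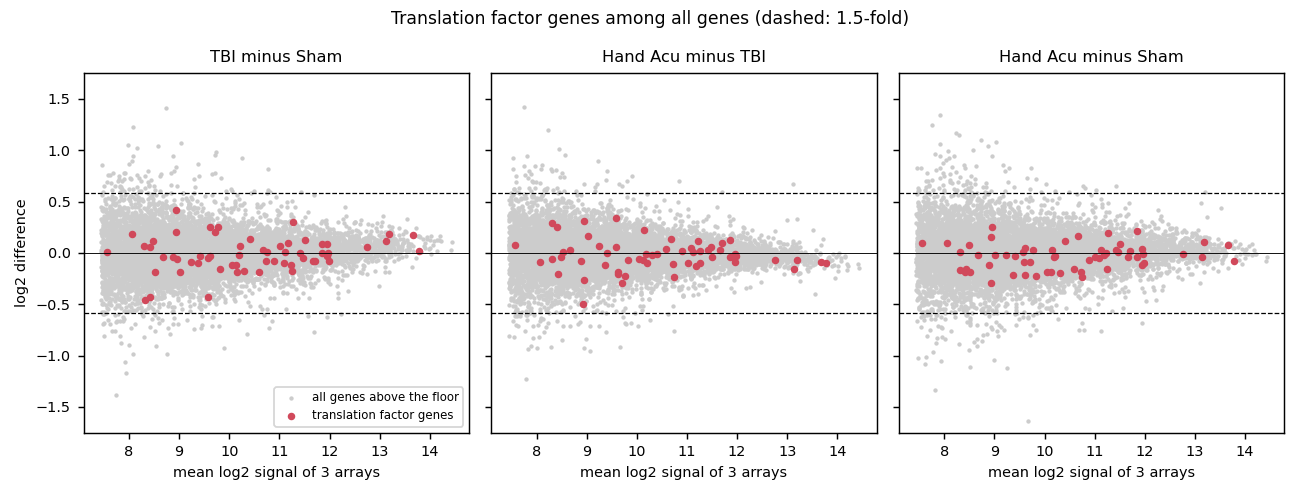
Log2 difference (vertical axis) against mean log2 signal of the 3 arrays (horizontal axis) for the 9241 genes above the floor (grey) and the 59 translation factor genes among them (red), 1 panel per comparison. All red points lie between the dashed lines at 1.5-fold, and the grey cloud narrows as signal rises.

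The factors that deliver the initiator tRNA and select the start codon showed no common direction. Of 12 such genes, 6 were higher and 6 lower on the TBI than on the Sham array, with a median of 0.00. For Hand Acu minus TBI 4 were higher and 8 lower (median -0.05). Over all genes above the floor, 51% and 49.3% were higher in these comparisons. Eif1b, a close relative of the start codon factor eIF1, had signals of 11.48, 11.44 and 11.49. Eif2s2, the beta subunit of eIF2, had 11.41, 11.41 and 11.43. Both were nearly level over the 3 arrays. The alpha subunit gene Eif2s1, whose protein is the target of the eIF2 kinases, had 10.82, 10.83 and 10.59, so it was alike on the Sham and TBI arrays and lower by 0.24 on the Hand Acu than on the TBI array (log2 difference -0.24).

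The gamma subunit of eIF2 has an X-linked and a Y-linked copy in the rat. Eif2s3y, the Y-linked copy, had signals of 11.10, 11.39 and 11.29, a TBI minus Sham difference of 0.30. Eif2s3, the X-linked copy, had 10.70, 10.51 and 10.54, a difference of -0.19. These were among the 5 highest and the 5 lowest members for TBI minus Sham, on opposite sides. The copies are closely related, so their probe sets may share RNA, and the number of males in each pool was not given. A further probe set assigned to both copies had 9.06, 9.08 and 9.05.

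Eif1a and Eif2a stood higher on the TBI array. Eif1a, which works beside eIF1 in scanning for the start codon, had 9.51, 9.77 and 9.56, and Eif2a, a separate initiator tRNA-binding factor, had 9.67, 9.92 and 9.70. For Eif1a the other probe sets above the floor did not show the same: they differed by -0.10, 0.02 and 0.14 for TBI minus Sham. Eif2a had no further probe set. Eif5b, the GTPase that joins the ribosomal subunits, had 9.95, 9.79 and 9.73, lower by 0.22 on the Hand Acu than on the Sham array in its brightest probe set (log2 difference -0.22), while its other probe sets differed by 0.02 and 0.10. The levels of Eif1ax (11.13, 11.03, 11.08), Eif6, which keeps the subunits apart (10.19, 10.26, 10.17), Eif1ad (9.42, 9.40, 9.40) and Eif2d (8.42, 8.54, 8.50) differed by at most 0.12 in size between any pair of arrays.

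The 5 subunits of eIF2B, the factor that recharges eIF2 with GTP, had signals between 8.30 and 9.37 in mean, with medians of -0.06 for TBI minus Sham and -0.05 for Hand Acu minus TBI. Eif2b4 had 9.47, 9.37 and 9.26, which placed it among the 5 lowest members for Hand Acu minus Sham at -0.22. Eif2b3 had 8.88, 8.83 and 9.13, and was the highest member for Hand Acu minus Sham at 0.25. The subunits therefore did not move together. Eif2b1 had 9.27, 9.18 and 9.25, Eif2b5 had 8.46, 8.51 and 8.30, and Eif2b2 had 8.28, 8.34 and 8.29.

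Of the roles described here, the eIF2 kinases had the largest median size of the TBI minus Sham difference, 0.30 over 4 genes. Over all genes above the floor it was 0.11, and with 4 genes no statement about the role as a group is drawn. Eif2ak4, which encodes GCN2, the sensor of uncharged tRNA, had 9.76, 9.32 and 9.66, and was 1.35-fold lower on the TBI than on the Sham array. Eif2ak2, which encodes PKR, a sensor of double-stranded RNA that interferon induces, had 8.75, 9.17 and 8.90, and was 1.34-fold higher. The TBI array was thus the lowest for Eif2ak4 and the highest for Eif2ak2, with the Hand Acu value between the other two in both. Eif2ak1, the haem-regulated kinase gene, had 10.20, 10.01 and 10.23. Eif2ak3, which encodes PERK, the kinase of the endoplasmic reticulum, had 9.09, 8.90 and 9.06. Both were lowest on the TBI array, by 0.17 to 0.22 in size against each of the other arrays. For Hand Acu minus TBI the differences were 0.34 for Eif2ak4, 0.22 for Eif2ak1, 0.17 for Eif2ak3 and -0.27 for Eif2ak2, and since both comparisons hold the TBI array, a deviation of that array alone would give opposite signs in them. Against Sham, the Hand Acu differences were -0.09, 0.03, -0.02 and 0.15. Only Eif2ak1 of these genes had a further probe set above the floor, with 9.57, 9.50 and 9.50, so it was also lower on the TBI than on the Sham array but not higher again on the Hand Acu array.

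The promoters of the kinases furthest apart on the TBI array are shown with that of Eif3i, an eIF3 subunit, because they differ in how many ETS cores they hold. Eif3i was chosen after the matches were seen. Each window runs from 250 bases before to 50 bases after the RefSeq start of the gene in the assembly GRCr8. Eif2ak2 lies at chr6:21940904-21941203 on the plus strand, Eif2ak4 at chr3:125809957-125810256 on the plus strand and Eif3i at chr5:147226861-147227160 on the minus strand. Sequences are from RefSeq, and capitals mark matches on either strand to CCGGAAG, the core bound by ETS factors.
Eif2ak2: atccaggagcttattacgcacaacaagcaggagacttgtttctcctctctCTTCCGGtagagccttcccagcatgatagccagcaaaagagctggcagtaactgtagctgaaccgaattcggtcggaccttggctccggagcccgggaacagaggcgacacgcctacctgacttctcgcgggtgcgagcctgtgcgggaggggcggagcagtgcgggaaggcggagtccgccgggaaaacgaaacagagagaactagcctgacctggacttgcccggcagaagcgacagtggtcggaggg
Eif2ak4: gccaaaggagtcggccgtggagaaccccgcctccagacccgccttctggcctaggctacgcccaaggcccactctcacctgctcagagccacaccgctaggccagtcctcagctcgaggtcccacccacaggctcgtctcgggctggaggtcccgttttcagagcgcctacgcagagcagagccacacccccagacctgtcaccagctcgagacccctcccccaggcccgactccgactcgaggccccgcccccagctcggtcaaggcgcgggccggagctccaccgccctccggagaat
Eif3i: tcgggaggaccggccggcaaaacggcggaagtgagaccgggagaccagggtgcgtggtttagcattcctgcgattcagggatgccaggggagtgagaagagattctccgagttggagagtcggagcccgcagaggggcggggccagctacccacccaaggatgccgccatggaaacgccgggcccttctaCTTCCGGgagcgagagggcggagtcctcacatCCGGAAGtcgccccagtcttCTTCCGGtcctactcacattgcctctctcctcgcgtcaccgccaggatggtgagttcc
In the Eif2ak2 window 1 ETS core began 200 bases before the start. The Eif2ak4 window held none, and that of Eif3i held 3 ETS cores within 60 bases before the start.

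Windows were found for 55 of the 60 members. CCGGAAG was present in 19 of the 55, or 34.5%, against 9.63% of the 27457 genes in the RefSeq table and 19.0% of the 7744 with a window that lay above the floor on these arrays. CCAAT, the CCAAT box, was present on either strand in 18 of 55, or 32.7%, against 39.6% and 39.2%. TATAAA, the TATA box, was present in 3 of 55, or 5.45%, against 15.3% and 6.93%. A match is a description of the letters and not of a bound site.

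**Figure D3:**
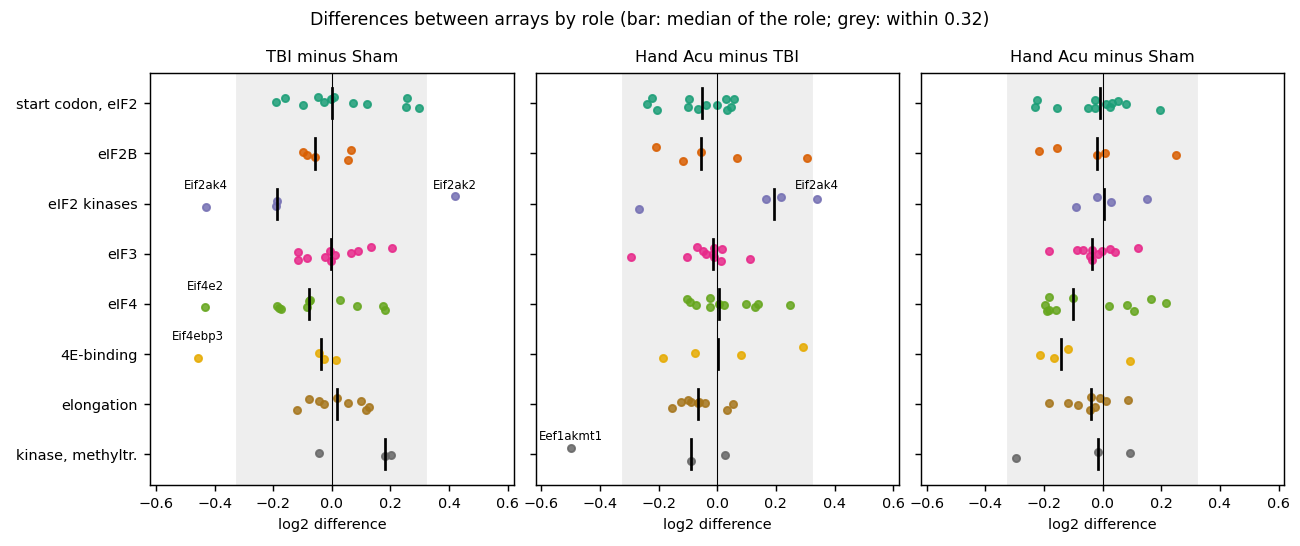
Log2 difference (horizontal axis) of each of the 59 members above the floor by role (rows), 1 panel per comparison, with the median of each role as a bar and the range within 0.32 of zero in grey. Eif2ak4, Eif4e2 and Eif4ebp3 lie left and Eif2ak2 right of the grey band for TBI minus Sham, Eef1akmt1 left and Eif2ak4 right of it for Hand Acu minus TBI, and no member outside it for Hand Acu minus Sham.

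By brightest probe set, the eIF3 scaffold, the largest initiation factor, was the most level of the initiation groups. The median gap between the highest and lowest array was 0.09 over its 11 genes. Eif3h had 11.97, 11.97 and 11.96, Eif3m had 11.90, 11.99 and 11.94, and Eif3f had 11.87, 11.86 and 11.83. All 3 stayed within 0.09 over the arrays. Eif3b, a core subunit that carries an RNA-recognition domain, was the exception with 9.67, 9.87 and 9.58, which put it among the 5 highest members for TBI minus Sham (0.21) and the 5 lowest for Hand Acu minus TBI (-0.29). The other subunit genes were Eif3c (11.26, 11.15, 11.26), Eif3a (11.11, 11.12, 11.13), Eif3j (11.00, 11.07, 10.97) and Eif3i (10.95, 10.86, 10.88). Eif3d had 10.32, 10.46 and 10.44, Eif3k had 10.20, 10.18 and 10.17, and Eif3l had 10.23, 10.12 and 10.05. Dimmer probe sets of 4 of these genes had the sign of the brightest for TBI minus Sham in every case, with differences of 0.07 for Eif3a, -0.04 for Eif3c, 0.20 for Eif3j and -0.20 for Eif3l. Those of Eif3a and Eif3c had the opposite sign to the brightest for Hand Acu minus TBI, at -0.16 against 0.01 and -0.25 against 0.11. Those of Eif3j and Eif3l had the same sign, at -0.43 against -0.10 and -0.14 against -0.07. For Hand Acu minus Sham the dimmer probe set of Eif3l stood at -0.34, against -0.18 in its brightest. The -0.43 of Eif3j and the -0.34 of Eif3l were larger in size than the -0.29 of Eif3b. The level pattern is therefore stated for the brightest probe sets only.

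Among the eIF4 genes, the helicase and scaffold genes of highest signal were slightly higher on the TBI array in their brightest probe sets. The genes for relatives of the cap-binding protein were lower there than on the Sham array. Eif4a2, the eIF4A helicase known for its expression in brain, had 13.58, 13.75 and 13.66, whereas its paralogue Eif4a1 had 11.72, 11.64 and 11.74. The pair thus differed in direction for TBI minus Sham, at 0.17 and -0.08, although the dimmer probe set of Eif4a2 stood at -0.15. Eif4g2, a scaffold relative that initiates without eIF4E, had 13.09, 13.27 and 13.20, but its further probe sets differed by -0.02 and -0.06. With quantile normalization the TBI minus Sham differences of Eif4a2 and Eif4g2 went from 0.17 and 0.18 to 0.09 and 0.11. The scaffold genes Eif4g1, with 10.42, 10.25 and 10.23, and Eif4g3, with 11.37, 11.19 and 11.21, were both highest on the Sham array in their brightest probe sets. A further probe set of Eif4g1 above the floor had 7.64, 7.62 and 7.83, highest on the Hand Acu array. Eif4h, a helper of the helicase, had 12.04, 11.97 and 11.94, Eif4b, another, had 10.82, 10.73 and 10.63, and Eif4a3, the helicase of the exon junction complex, had 10.61, 10.64 and 10.78. A further probe set of Eif4b had 9.15, 9.18 and 8.73. It stood at -0.45 for Hand Acu minus TBI and -0.42 for Hand Acu minus Sham, where the brightest stood at -0.10 and -0.19.

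Eif4e, the cap-binding protein gene, had 11.75, 11.84 and 11.97, and was among the 5 highest members for Hand Acu minus Sham at 0.22. Its relatives went the other way. Eif4e2, which encodes 4EHP, a cap-binding protein that represses translation, had 8.62, 8.19 and 8.44, and was 1.35-fold lower on the TBI than on the Sham array. Eif4e3 had 8.64, 8.45 and 8.46 in its brightest probe set and 8.39, 7.77 and 7.61 in another, so both were highest on the Sham array. That other probe set was the only 1 of the members' 77 probe sets above the floor that was at least 1.5-fold apart, at -0.62 for TBI minus Sham and -0.78 for Hand Acu minus Sham.

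The eIF4E-binding proteins, which hold eIF4E back until mTOR phosphorylates them, were described by 3 paralogues and a transporter. Eif4ebp3 had 8.52, 8.06 and 8.36 and was the lowest member for TBI minus Sham, at 1.37-fold lower. Eif4ebp2, the form that predominates in brain, had 8.94, 8.89 and 8.82, and Eif4ebp1 had 7.53, 7.54 and 7.62, close to the floor. Eif4ebp3 alone of these was apart on the TBI array, and each of the paralogues had 1 probe set. Eif4enif1, which encodes the protein that carries eIF4E into the nucleus, had 9.69, 9.67 and 9.48 and was among the 5 lowest members for Hand Acu minus Sham at -0.21.

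By brightest probe set, elongation factor genes were bright and level. Of 9 genes, 5 were higher on the TBI than on the Sham array (median 0.02), against 51% of all genes above the floor. For Hand Acu minus TBI 2 were higher and 7 lower (median -0.07), where 49.3% of all genes were higher. The widest gap between arrays in the group was 0.18 by brightest probe set, and the other probe set of Eef1a1 had a wider one of 0.27. Eef1a1, the tRNA-delivering factor of most tissues, had 13.80, 13.82 and 13.72, and its other probe set had 13.39, 13.63 and 13.66. Both lay near the top of the arrays' range, and they differed in sign for Hand Acu minus Sham, at -0.08 and 0.27. Eef1a2, the paralogue that takes over in mature neurons and muscle, had 9.59, 9.54 and 9.60. The copies are very similar, so RNA of either may add to the other's probes. Eef1b2, a subunit of the complex that recharges eEF1A, had 13.11, 13.22 and 13.07, and Eef1g, another, had 12.74, 12.79 and 12.73. Eef1d, a further subunit gene, had 10.15, 10.03 and 9.97, highest on the Sham array. Eef2, the translocase gene, had 12.00, 11.97 and 11.88, with no other probe set above the floor.

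Eif5a, the factor that carries the amino acid hypusine and eases peptide bond formation, had 11.43, 11.56 and 11.52. Its paralogue Eif5a2 had 11.71, 11.63 and 11.66 in its brightest probe set, so the pair differed in sign for TBI minus Sham, at 0.13 and -0.08. The other Eif5a2 probe set above the floor differed by 0.03, which is the sign of Eif5a. Eef1e1, which encodes a small protein of the multi-synthetase complex, had 11.16, 11.25 and 11.13.

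Messages of many elongation factors begin with an unbroken run of pyrimidines, through which mTOR controls their translation. The windows of the brightest pair are therefore shown, with the longest run of C and T near the start in capitals. Eef1a1 lies at chr8:88225020-88225319 on the minus strand and Eef1b2 at chr9:72073841-72074140 on the plus strand, both in GRCr8 and from RefSeq, with the start at base 251 of each window.
Eef1a1: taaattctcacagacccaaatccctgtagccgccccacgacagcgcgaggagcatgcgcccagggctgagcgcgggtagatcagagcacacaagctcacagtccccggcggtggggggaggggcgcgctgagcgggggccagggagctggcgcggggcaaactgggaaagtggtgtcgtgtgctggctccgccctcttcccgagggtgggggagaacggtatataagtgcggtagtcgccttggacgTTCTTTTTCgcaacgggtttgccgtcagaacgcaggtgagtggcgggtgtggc
Eef1b2: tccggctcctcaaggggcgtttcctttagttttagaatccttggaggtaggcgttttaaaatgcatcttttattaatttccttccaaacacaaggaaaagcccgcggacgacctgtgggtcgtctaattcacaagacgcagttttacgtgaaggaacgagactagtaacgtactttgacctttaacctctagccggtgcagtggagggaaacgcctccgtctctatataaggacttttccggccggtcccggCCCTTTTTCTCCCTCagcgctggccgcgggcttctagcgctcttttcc
The run was 9 bases long in Eef1a1 and 15 in Eef1b2. A run of at least 8 bases that touches the 20 bases on either side of the start was found in 5 of 8 elongation factor genes with a window and 20 of 55 members, or 36.4%, against 22.8% of the genes in the table and 20.5% of those above the floor. Of these 5 runs, those of Eef1g, Eef1a2 and Eef2 began 20, 25 and 19 bases before the start and ended before it. By this annotation they are not part of the message. The run of Eef1a1 crossed the start, and that of Eef1b2 began 2 bases after it. RefSeq starts can lie some bases away from the start used in brain.

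Of the genes that modify elongation factors, Eef1akmt1, which encodes a methyltransferase of eEF1A, had 8.96, 9.16 and 8.66. It was the lowest member both for Hand Acu minus TBI, at 1.41-fold lower, and for Hand Acu minus Sham, at -0.30. Eef1akmt2, a related enzyme gene, had 8.69, 8.65 and 8.68 and was level. Eef2k, which encodes the kinase that halts eEF2, had 7.97, 8.15 and 8.06 in its brightest probe set. Its 3 further probe sets lay below the floor and went both ways for TBI minus Sham, at 0.25, -0.55 and 0.22.

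Direction was often not shared between probe sets of the same gene. More than 1 probe set above the floor was available for 14 members, with 18 further probe sets in all. For TBI minus Sham 12 of the 18 went the way of the brightest, for Hand Acu minus TBI 7 and for Hand Acu minus Sham 9. The median gap between a further probe set and the brightest was 0.13, 0.19 and 0.19 in the same order, as large as most differences between the arrays. Of the members past 0.32 in size, Eif2ak2, Eif2ak4, Eif4e2, Eif4ebp3 and Eef1akmt1 each had 1 probe set, so none could be checked in this way.

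**Figure D4:**
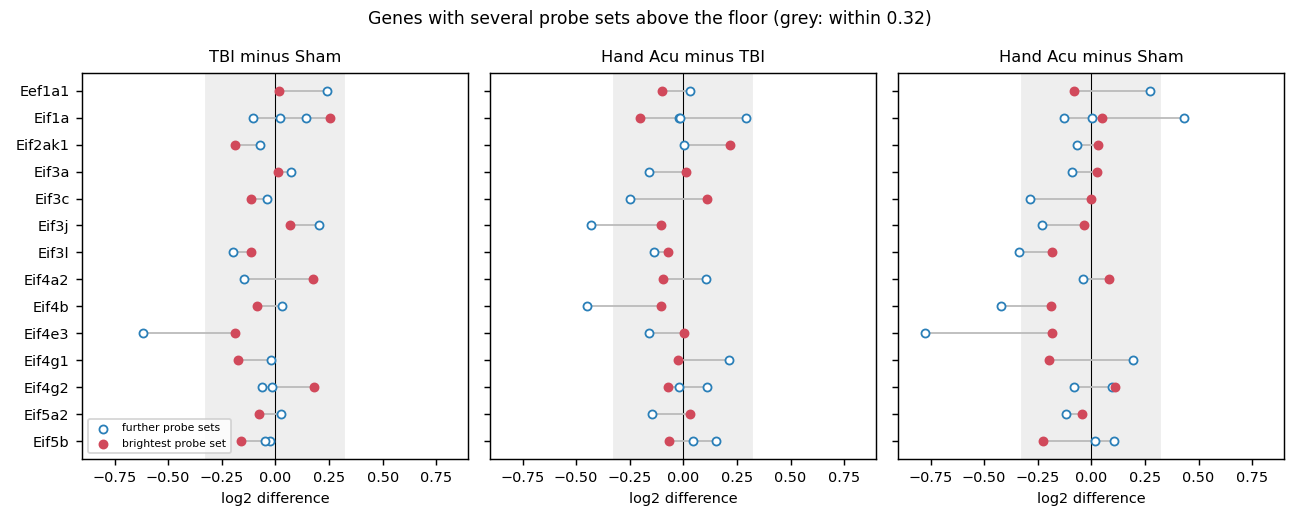
Log2 difference (horizontal axis) of the brightest (filled) and further (open) probe sets above the floor for the 14 members with several (rows), 1 panel per comparison, with the range within 0.32 of zero in grey. The lowest open point in the TBI minus Sham and Hand Acu minus Sham panels is Eif4e3, at -0.62 and -0.78.

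Other genes of translation were described from 7 lists, of which 83 genes were measured and 80 lay above the floor. For TBI minus Sham 40 of 80 were higher, with a median of -0.00, and 1 was at least 0.32 higher and 2 at least 0.32 lower, where 5.05% of all genes above the floor were in each direction. For Hand Acu minus TBI 32 of 80 were higher (median -0.02), with 5 higher and 1 lower by that much, against 4.04% and 4.12% of all genes. For Hand Acu minus Sham 40 of 80 were higher (median -0.00), with 2 higher and 3 lower by that much, against 5.5% and 5.46%. Over all genes above the floor, 51%, 49.3% and 51% were higher in these comparisons, in the same order. In signalling to translation the widest difference was that of Mknk2, a kinase that phosphorylates eIF4E, with 8.39, 7.69 and 8.25. It was lowest on the TBI array, at -0.70, the only 1 of the 80 genes past 1.5-fold in any comparison. Larp1, which binds pyrimidine-run messages, had 11.28, 11.27 and 10.92, and Pdcd4, an inhibitor of eIF4A, had 11.07, 11.29 and 11.47.

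Genes of the integrated stress response, the pathway around the eIF2 kinases, include regulators of the kinases as well as targets. They had a median of 0.02 for TBI minus Sham, with 8 of 12 higher, against 51% of all genes above the floor. Atf4, the transcription factor whose translation rises when eIF2 is phosphorylated, had 12.17, 12.20 and 12.15, and its target Ddit3 had 9.74, 9.75 and 9.69. Both were level at 1 h, as was Asns, another target, with 9.91, 9.93 and 9.94. The targets Chac1, with 9.43, 9.22 and 9.51, and Sesn2, with 7.97, 7.73 and 7.97, were lowest on the TBI array, by 0.21 and 0.24 in size against Sham. Slc7a11, of the same list, went the other way with 10.26, 10.42 and 10.41, and Atf5 had 9.55, 9.59 and 9.62. Of the regulators of GCN2, the activator Gcn1 had 8.03, 7.97 and 7.78 and the inhibitor Impact 12.49, 12.68 and 12.68. Cebpb was higher on the TBI array with 9.27, 9.68 and 9.39, and Ppp1r15a, the regulator that restores eIF2, lay below the floor with 6.97, 6.69 and 7.18. Termination and rescue factors were higher on the TBI than on the Sham array in 5 of 5 genes, against 51% of all genes above the floor. Their median size of difference was 0.08, where it was 0.11 over all genes above the floor. No statement about this list as a group is drawn. Hbs1l stood at 10.16, 10.19 and 9.90.

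Of cytosolic tRNA synthetases, 8 of 19 were higher on the TBI than on the Sham array (median -0.01), against 51% of all genes above the floor. Tars1, for threonine, had 9.41, 9.05 and 8.95, and was the lowest of the 80 genes for Hand Acu minus Sham at -0.46. In the other direction Farsb and Hars1, for phenylalanine and histidine, were 0.30 and 0.29 higher on the TBI than on the Sham array, and Vars1, for valine, was 0.33 higher on the Hand Acu than on the Sham array. Farsa, the other subunit for phenylalanine, was 0.33 higher on the Hand Acu than on the TBI array. Mitochondrial factors had a median of 0.15 for Hand Acu minus TBI, with 4 of 7 higher, against 49.3% of all genes above the floor. Among the 4 were the release factor relative Mtrfr at 0.51, close to the floor with 7.48, 7.18 and 7.69, and the elongation factor Gfm1 with 9.69, 9.63 and 9.96. Genes of hypusine and diphthamide synthesis, the modifications of eIF5A and eEF2, had a median of -0.11 for Hand Acu minus TBI. Of these 7 genes 2 were higher and 5 lower, where 49.3% of all genes above the floor were higher. Dph7 was -0.35 for Hand Acu minus Sham. Partners at the ends of the mRNA differed by no more than 0.18 in size in any comparison, over 14 genes.

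**Figure D5:**
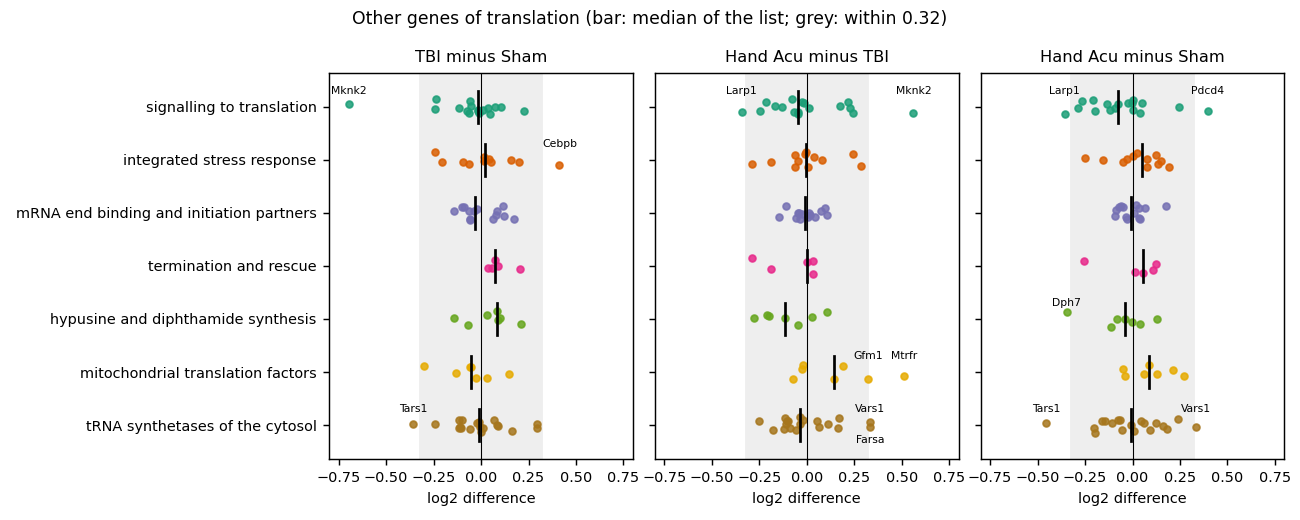
Log2 difference (horizontal axis) of the other translation genes above the floor by list (rows), 1 panel per comparison, with list medians as bars and the range within 0.32 of zero in grey. Mknk2 lies furthest left for TBI minus Sham at -0.70 and furthest right for Hand Acu minus TBI at 0.56.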

How the data were processed

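Each of 3 rat brainstem RNA pools was measured on 1 Affymetrix array. The authors deposited log2 signals made with MAS5, per the submitters' processing notes, which give no version; log base and scaling were read from the values, whose linear mean after dropping 2% of probe sets at either end came to 500.0 on all 3 arrays. MAS5 subtracts mismatch signal, which makes dim probe sets erratic. The arrays hold 31099 probe sets, 57 of them controls; 20826 carried a single symbol in the platform annotation of 2016, 436 several and 9780 none there. Identifiers of all 60 members were in the RefSeq table of GRCr8, under the same symbols.

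With 1 array per group no test was run. Differences of deposited log2 values were taken per gene, and members past a log2 difference of 0.32, 1.5-fold or 2-fold were counted beside all genes above the floor. The members, roles, lists and rules were chosen with earlier results of these data known. Values are given for the 3 brightest members of each role, the 5 highest and 5 lowest of each comparison, named paralogues and kinases, and the 3 highest and 3 lowest other translation genes. Others were named after their values were seen. The motifs, the measure of pyrimidine runs with its length and window, the second background of genes above the floor, and the promoters shown were likewise chosen after the members' values and promoter sequences had been seen. A search for the interferon response element was also made and is not reported here. Alternatives were quantile normalization, median centring, a higher floor at the 75th percentile (9.25), no floor, an offset of 50, averaging a gene's probe sets, probe sets on their own, and other fold thresholds. Scripts (Python 3.11.15, numpy 2.4.6, pandas 2.3.3, scipy 1.17.1, matplotlib 3.10.9) were tested on simulated data.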

Additional observations from a re-analysis of the deposited data

How the results depend on the processing

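No paired analysis was possible because each group holds 1 array. The medians of the members kept their sign in all 3 comparisons under the 7 alternatives of scaling, floor, offset and probe set, and moved by less than 0.05. The medians were themselves smaller than 0.05 in size, so that limit cannot show that they are stable. For Hand Acu minus TBI the median went from -0.039 to -0.024 with each probe set on its own. No member was 1.5-fold apart under any of these except where each probe set was counted on its own, with 1 of 77 for TBI minus Sham and 1 of 77 for Hand Acu minus Sham, both Eif4e3. At a log2 difference of 0.32 the counts were 4, 2 and 0 in the order TBI minus Sham, Hand Acu minus TBI and Hand Acu minus Sham. With the mean of all probe sets, which adds probe sets below the floor, they were 7, 6 and 2 of 56, against 10.6%, 8.49% and 10.9% of all genes under that setting. With each probe set on its own they were 5, 4 and 4 of 77, against 11.3%, 8.89% and 12.3% of all probe sets above the floor. With the higher floor they were 1, 1 and 0 of 44, against 4.8%, 3.37% and 5.2% of genes, and with the offset 4, 1 and 0 of 59, against 7.41%, 5.88% and 8.55%. For Hand Acu minus TBI the higher floor left 44 members, of which 15 were higher, against 23 of 59. The 10 members of highest signal shared 5 with the 10 found from the mean of all probe sets, and the cause is that dim probe sets enter that mean. Among named members, no difference past 0.32 changed sign, but these settings could hardly have changed one. Eif2ak2, Eif2ak4, Eif4e2, Eif4ebp3 and Eef1akmt1 each had 1 probe set, so averaging left their values as they were. Scaling and the offset moved these genes by less than 0.1. The kept signs are therefore no evidence that these differences are stable. Under averaging, 26 of 111 values moved by 0.1 or more, among them Eif4e for TBI minus Sham, from 0.09 to -0.51. Under quantile normalization 2 values did, both of Eef1a1, which stood at -0.10 for TBI minus Sham and 0.00 for Hand Acu minus TBI. Without replicates, no difference here can be set against the spread between animals.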

Other observations

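Probe sets that the platform table assigns to a translation factor together with another gene were left out above. The probe set named for Eif3e, a subunit of eIF3, and its copy Eif3el1 had 12.08, 11.99 and 12.00 (log2 signal, in the order Sham, TBI, Hand Acu). Eif5, the factor that makes eIF2 hydrolyse its GTP, shares 3 probe sets with the pseudogene Eif5-ps1. The brightest had 12.19, 12.31 and 12.19, the next 11.17, 11.24 and 11.09, and the last 10.99, 10.84 and 10.84. For TBI minus Sham these differed by 0.12, 0.08 and -0.15, so the probe sets of this gene went both ways. No difference in these 4 probe sets reached 0.32 in size in any comparison.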
